A study of Danio rerio with 30 samples.

Results

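The response to lipopolysaccharide (LPS) was examined in spleens of zebrafish that had been incubated at 32 °C, in 10 of the 30 libraries of the series. They were 5 control libraries (replicate numbers 3, 6, 7, 8 and 9) and 5 libraries of LPS fish (1, 2, 3, 5 and 7), chosen by their labels and not by any measured value. All came from adults of the AB laboratory strain, 100 days after fertilisation, and the labels name no genetic change. Embryos and larvae of both groups grew at 32 °C; the labels put adults at 28 °C without saying whether the sampled fish are meant. Under anaesthesia, LPS fish were injected in the body cavity with 2 µl of a 50 mg/ml solution of LPS from Pseudomonas aeruginosa, and their spleens were taken 12 h later. Whether the controls were injected is not given. It is not stated either that each replicate is another fish, so the spread behind the p-values may be technical. The comparison was made over 364 microRNA rows that passed a low-count filter, out of 8866 rows. The same comparison at 24 and 28 °C, with its own 5 control and 5 LPS libraries at each temperature, served to ask whether the response at 32 °C differed.

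MicroRNAs (miRNAs) are short RNAs that guide Argonaute proteins to matching messenger RNAs and lower their translation and stability. LPS, a component of the outer membrane of Gram-negative bacteria, activates NF-κB in mammalian macrophages, which induces miR-146a, miR-155 and miR-21 among others, and several of these in turn restrain the signalling that induced them. The fish spleen filters blood and holds lymphocytes, macrophages, thrombocytes and red cells in a stroma rich in vessels, so that the miRNAs of a whole spleen report on all of them together. In such bulk samples fewer cells of a type and less RNA per cell cannot be told apart.

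The 10 libraries held 199431 (control 3) to 7584818 counts (control 7), with a median of 1066364. The depth of LPS and control libraries had a ratio of geometric means of 1.05 (exact two-sided permutation test, p = 0.944). The log2 totals were 20.5 ± 1.29 and 20.4 ± 2.13 (SD, n = 5 each), a spread too wide to show that depth was alike. Thinned to an equal total of 199431 counts, LPS and control libraries showed 327 ± 81.2 and 362 ± 97.0 rows with counts (SD, n = 5 each, exact two-sided permutation test, p = 0.556). A count of 0 allows up to 0.598 CPM in control 7 and 13.1 CPM in control 3, where CPM are counts scaled to a common library size after TMM normalisation. The 10 most abundant rows held 70.2 to 85.0% of each library. Of the 364 rows, 161 carry zebrafish names, written below without a prefix, and 142 carry names of other species, kept with their prefix (oni, Nile tilapia; ola, medaka; ssa, Atlantic salmon; ccr, common carp; ipu, channel catfish; gmo, Atlantic cod; mmu, mouse; hsa, human). The other 61 rows are named by a chromosome or contig and a number. Reads of near-identical miRNAs may have been divided between such rows, so the level of any one row is uncertain.

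Libraries of the same treatment were no more alike than libraries of different treatment. Over the 364 rows, Pearson's r of log2(CPM + 1) averaged 0.630 between controls, 0.654 between LPS libraries and 0.664 between a control and an LPS library. These are correlations across rows, which are not independent replicates, and they are given as a description. The most alike of the 45 pairs joined the treatments, control 7 with LPS 5 at 0.893, and these are also the deepest library of each group. The least alike pair joined 2 controls, 3 and 7, at 0.404, which are the shallowest and the deepest of the 10 libraries. Control 7 and LPS 5 stood apart from most others in several groups of miRNAs, so the counts of the lists that moved most are also given without control 7, without LPS 5 and without both, in this order. Their part in each result was not tested beyond that.

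**Figure D1:**
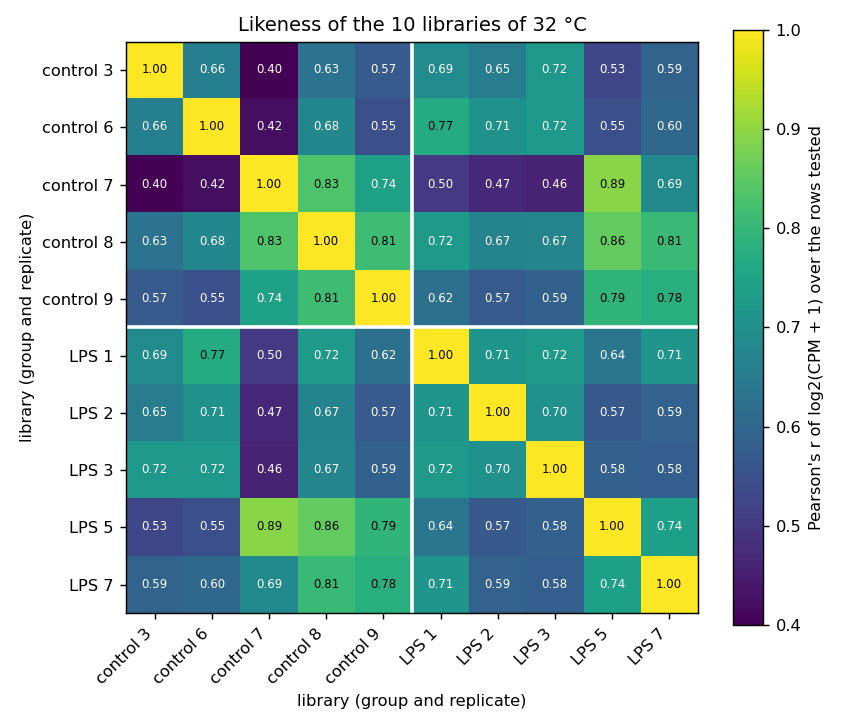
Pearson's r between the 10 libraries of 32 °C over 364 rows, on log2(CPM + 1), with white lines between controls and LPS libraries. The highest value off the diagonal joins control 7 and LPS 5 (0.893), and the blocks within a treatment are no brighter than the block between them (means 0.630, 0.654 and 0.664).

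No miRNA row passed the test for a difference between LPS and control spleens at 32 °C. With edgeR's quasi-likelihood test and Benjamini-Hochberg adjustment over the 364 rows, 0 rows had an adjusted p under 0.05 (0% of the rows tested), and the smallest adjusted p was 0.999. At an unadjusted p under 0.05 there were 7 rows (1.92%), 4 of them higher with LPS (1.1%) and 3 lower (0.824%). The fitted log2 difference was above 0 in 160 of the 364 rows (44%), with a median of -0.11. It was above 0 in 238 of 376 rows without control 7 (median 0.33), in 185 of 376 without LPS 5 (-0.022) and in 149 of 364 without both (-0.23), against which the list counts below are to be read. DESeq2 called 1 row, hsa-let-7d-3p, higher with LPS (adjusted p = 0.000355), but that row had counts in LPS 5 (0.313 CPM) and LPS 7 (0.784 CPM) and in no other of the 10 libraries. limma voom, run with a weight estimated for each library, called 1 other row, ccr-miR-27c-5p, lower with LPS (log2 difference -5.29, adjusted p = 0.0214). Neither call was shared by the other methods.

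**Figure D2:**
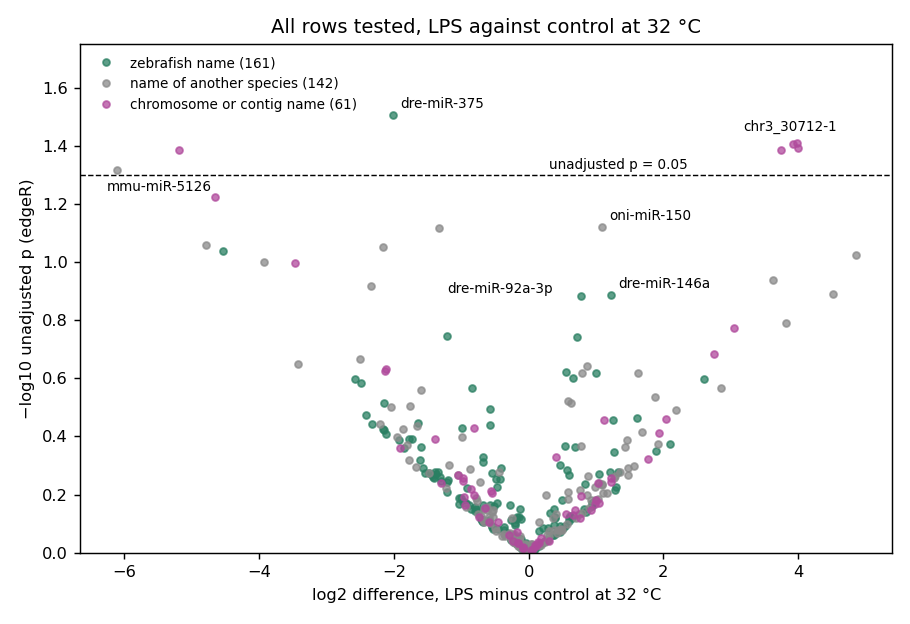
Log2 difference between LPS and control libraries at 32 °C (x axis) against −log10 of the unadjusted p from edgeR (y axis), 1 point per row, coloured by the kind of name. The 7 points over the dashed line are the rows with an unadjusted p under 0.05, and none of the 364 rows passed after adjustment.

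The spread between libraries set what could be seen. The standard error of the log2 difference had a median of 1.98 over all rows and of 0.687 over the 64 rows that averaged at least 1000 CPM. In those 64 rows the 95% interval reached a median of 1.39 on the log2 scale to either side of the estimate, which is 2.62-fold. The interval lay within a 2-fold change in either direction in 7 rows, all of the let-7 and miR-125 families. In all other rows the interval included a 2-fold change in at least 1 direction, so a change of that size was within the error.

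The row with the smallest p was miR-375, a miRNA of pancreatic islet and other endocrine cells that restrains insulin release in mammals. Values are listed here and below by replicate number, controls 3, 6, 7, 8 and 9 first and then LPS 1, 2, 3, 5 and 7. miR-375 stood at 5033, 2261, 992, 4566 and 2529 CPM in the controls and 175, 1289, 119, 763 and 1461 CPM in the LPS libraries. All 5 LPS libraries lay below the control median, LPS 1 and LPS 3 lowest, but the groups overlapped because control 7 lay below LPS 2 and LPS 7. The log2 difference was -2.01 ± 0.90 (SE; 95% interval -3.84 to -0.19; edgeR, unadjusted p = 0.0313, adjusted p = 0.999), so it did not pass. Left out in turn, the 10 libraries gave log2 differences from -2.39 to -1.63 and unadjusted p from 0.0225 to 0.0980.

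Other miRNAs of the exocrine and endocrine pancreas were fitted lower with LPS as well, but with wide errors. The list held miR-216, miR-217, miR-375 and miR-7, and 6 of its rows were tested; 0 were called, 0 of 6 estimates were above 0 (44% over all rows) and the median log2 difference was -1.21. Together the list's rows made up 0.217 to 0.615% of the raw counts of a control library and 0.0162 to 0.204% of an LPS library. These ranges do not overlap, whereas the CPM of miR-375 itself do. The shares were taken before TMM scaling, with factors of 0.828 in control 6 (share 0.217%) and 0.535 in LPS 5 (0.142%). Divided by these factors, the share of LPS 5 reaches that of control 6, so the separation is lost on the CPM scale. ccr-miR-217, named after the miRNA of pancreatic acinar cells, stood at 144, 1.19, 392, 83.3 and 159 CPM in the controls and 0, 2.73, 1.47, 208 and 0.784 CPM in the LPS libraries. LPS 5 held 663 counts of it and the other LPS libraries 0 to 2 counts. miR-7a, enriched in endocrine cells, stood at 166, 1.19, 981, 306 and 61.7 CPM in the controls and 0, 1.37, 1.47, 737 and 130.1 CPM in the LPS libraries, with control 7 and LPS 5 the highest of their groups. The log2 difference of miR-7a was -0.80 ± 2.22, and that of ccr-miR-217 was -1.87 ± 2.09. Without LPS 5 they were -2.77 and -6.27, the second with an unadjusted p of 0.0271 in edgeR and an adjusted p of 0.600, and without control 7 they were -0.20 and -1.92. Over the list, 2 of 6 estimates were above 0 without control 7 (median -0.19), 1 of 6 without LPS 5 (-1.71) and 1 of 6 without both (-1.76). Whether pieces of neighbouring tissue came with some spleens was not tested.

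Markers of the liver and of the gut lining varied as widely. miR-122, the dominant miRNA of hepatocytes, stood at 3019.6, 2382, 14381, 14339.5 and 30449 CPM in the controls and 458, 791, 796, 4678 and 33818 CPM in the LPS libraries. Control 9 and LPS 7 were the highest of their groups, and 4 of 5 LPS libraries lay below the control median. Its log2 difference was -0.67 ± 0.96 (SE, unadjusted p = 0.488 in edgeR). Left out in turn, the 10 libraries gave from -3.37 (without LPS 7) to 0.21 (without control 9). The unadjusted p in edgeR then ran from 0.00327 to 0.883, and no row passed after adjustment in any of these fits. In the gut and epithelium list (miR-192, 194, 200, 429, 141, 203 and 205), 1 of 13 estimates was above 0 and the median was -1.30, with 0 rows called. With the libraries left out it was 3 of 13, 1 of 14 and 2 of 12, with medians of -1.23, -2.23 and -2.36. Its rows made up 0.0213 to 1.37% of a control and 0.00510 to 0.318% of an LPS library, and these ranges overlap. miR-192, of the intestinal and hepatic epithelium, stood at 0, 0, 353, 102 and 4499 CPM in the controls and 0.825, 0, 0, 358 and 519.8 CPM in the LPS libraries; control 9 held most of it, and without that library the estimate of -2.49 ± 2.19 turned to 0.76.

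miRNAs that inflammation induces in mammals were mostly fitted higher with LPS, but none passed the test and the count of higher estimates depended on single libraries. The list held miR-146, 155, 21, 132, 212, 147, 221 and 222. Of its 15 tested rows 14 had an estimate above 0 (44% over all rows), with a median log2 difference of 0.69 against -0.11 over all rows; 0 were called and 0 had an unadjusted p under 0.05. Without LPS 5, 7 of the 15 estimates were above 0 and the median was -0.12. Without control 7 it was 15 of 15 (median 1.03), without both it was 9 of 15 (median 0.07), and without control 3 it was 10 of 15 (median 0.25). Summed over the list, LPS 5 held 26.9% of its counts in these rows and LPS 7 held 16.3%, while LPS 1, 2 and 3 held 5.44 to 8.81% and the controls 2.98 to 13.7%.

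miR-146a, which represses the adaptor proteins of Toll-like receptor signalling, stood at 959, 3222, 28463, 2753 and 14024 CPM in the controls and 3954, 4721, 1427, 94431 and 10959.9 CPM in the LPS libraries. LPS 5 was the highest library and control 7 the next, while LPS 3 was lower than 4 of the 5 controls. The log2 difference was 1.22 ± 0.79 (SE; edgeR, unadjusted p = 0.130), and without LPS 5 it was -0.36. miR-21, which dampens inflammatory signalling in mammalian macrophages and was the third most abundant row, stood at 21804, 59017, 154080, 127877 and 108238 CPM in the controls and 118236, 68471, 53179, 341420 and 114235 CPM in the LPS libraries. Control 3 was lowest and LPS 5 highest, and the medians of 108238 and 114235 CPM were close. Its log2 difference was 0.56 ± 0.47 (unadjusted p = 0.239 in edgeR), and it was 0.043 without control 3.

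miR-222a-3p, of a pair of miRNAs that promote cell cycle entry by repressing cyclin-dependent kinase inhibitors, stood at 1481, 2179.9, 2679.5, 4786 and 3488 CPM in the controls and 3281, 2574, 2299, 10359 and 4643 CPM in the LPS libraries. Its groups overlapped except for LPS 5, and the log2 difference was 0.66 ± 0.57 (unadjusted p = 0.250 in edgeR), or 0.26 without control 3. The salmon-named ssa-miR-21a-5p had a log2 difference of 0.63 ± 0.61, close to that of miR-21. miR-146b, the sister of miR-146a, averaged 7440.5 CPM over the 10 libraries with a log2 difference of 0.69 ± 0.87. The 3 rows of miR-155, which drives macrophage and lymphocyte activation in mammals, averaged 70.8 CPM (miR-155), 236 CPM (oni-miR-155) and 421 CPM (hsa-miR-155-5p). Their log2 differences were 0.60 ± 2.14, 1.08 ± 1.95 and 0.98 ± 1.82, each within 1 standard error of 0. The miR-146b and miR-155 rows were chosen after their values were seen.

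**Figure D3:**
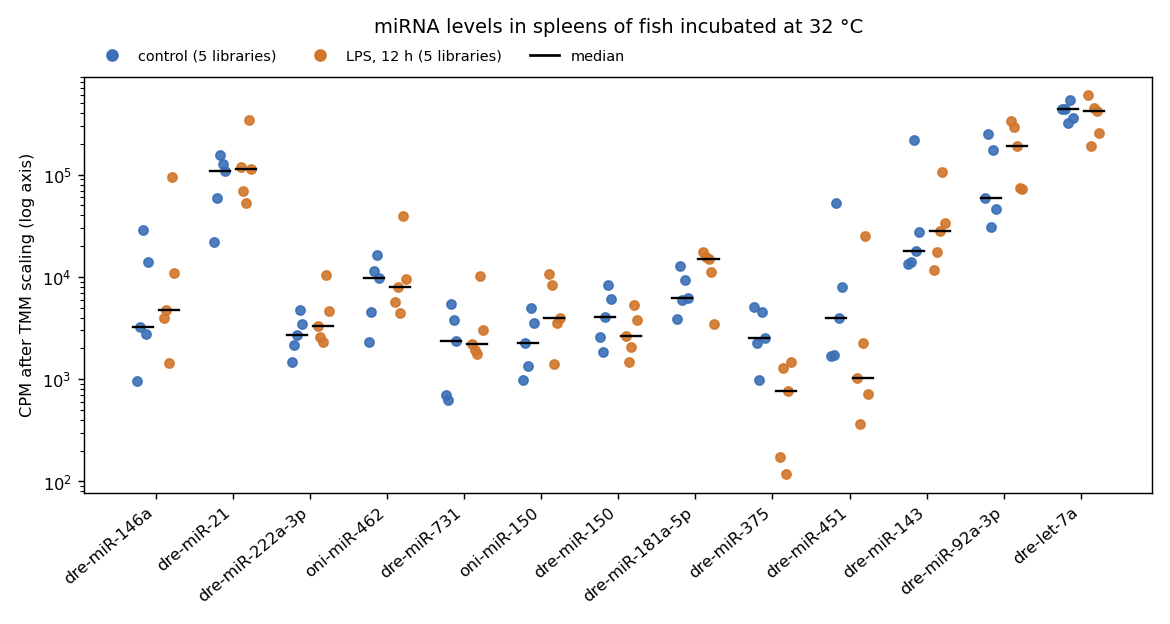
CPM after TMM scaling (log axis) of 13 miRNA rows in each of the 5 control (blue) and 5 LPS libraries (orange) at 32 °C, with the median of each group as a black line. The groups overlap in every row shown, including miR-375, whose LPS median of 763 CPM is below the control median of 2529 CPM.

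The antiviral pair of teleost fish, miR-462 and miR-731, which are made from 1 cluster and are induced by interferon in fish, was not called either. All 4 tested rows had an estimate above 0, but 3 of 4 did under RLE or total-count scaling, because miR-462 itself turned from 0.02 ± 0.68 to -0.19 and -0.26. oni-miR-462, the most abundant row of the pair, stood at 2327, 4533, 11528, 16209.5 and 9819 CPM in the controls and 5704, 8051, 4399, 39268 and 9461 CPM in the LPS libraries. LPS 5 was the highest library, while the other LPS libraries lay below the control median, and the log2 difference was 0.59 ± 0.56 (SE; edgeR, unadjusted p = 0.300). miR-731 stood at 706, 619, 5413, 3777 and 2339 CPM in the controls and 2218, 1949, 1747, 10176 and 3043 CPM in the LPS libraries, with controls 3 and 6 lowest and LPS 5 highest. Its log2 difference was 0.57 ± 0.88, and it was -0.024 without control 6. With the libraries left out, 3 of 4, 3 of 4 and 2 of 4 estimates of the pair were above 0, with medians of 0.76, 0.25 and 0.0094.

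Among leukocyte miRNAs (miR-142, 223, 150, 181 and 155) 13 of 22 tested rows had an estimate above 0, with a median of 0.57 and 0 calls. The miR-155 rows, all above 0, are also counted in the inflammation list, and all rows of miR-142 and miR-223 were below 0. With the libraries left out it was 19 of 22, 13 of 22 and 11 of 21, with medians of 1.01, 0.53 and 0.076. oni-miR-150, named after the miRNA of mature lymphocytes that represses the transcription factor c-Myb, stood at 980.4, 2253, 1351, 4939.7 and 3506 CPM in the controls and 10577, 8258, 1396, 3585 and 3977 CPM in the LPS libraries. LPS 1 and LPS 2 were the highest libraries, and 4 of 5 LPS libraries lay above the control median. Its log2 difference was 1.09 ± 0.60 (SE; edgeR, unadjusted p = 0.0759), and it ran from 0.77 without LPS 2 to 1.71 without LPS 5.

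The zebrafish-named row of miR-150 went the other way. It stood at 2566, 1865, 4085, 8260.1 and 6018 CPM in the controls and 2665, 1474, 2087, 5296 and 3828 CPM in the LPS libraries, with 4 of 5 LPS libraries below the control median and a log2 difference of -0.57 ± 0.57. The cod-named gmo-miR-150-5p, chosen after its values were seen, had -0.01 ± 0.59. The counts of rows named exactly miR-150 after any species prefix, summed before the fit, had 0.32. That sum leaves out gmo-miR-150-5p, whose name differs by its arm. The sign of the miR-150 estimate thus depended on the row.

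miR-181a-5p, which tunes antigen receptor signalling in mammalian lymphocytes, stood at 3909, 12812, 5997, 9333 and 6217 CPM in the controls and 17583, 15823, 15115, 11170.4 and 3485 CPM in the LPS libraries. LPS 1, 2, 3 and 5 were high and LPS 7 alone was low, while control 6 was the only control within the range of those 4 LPS libraries. The log2 difference was 0.72 ± 0.53 (SE; edgeR, unadjusted p = 0.181), from 0.42 without LPS 2 to 1.35 without LPS 5, and the medaka-named ola-miR-181b-5p had 0.87 ± 0.71. Rows of miR-142, a marker of all blood lineages in fish and mammals, were low in these spleens, with means of 10.6 to 149 CPM. Their log2 differences ran from -1.40 ± 2.35 (miR-142a-3p) to -0.10 ± 2.50 (miR-142b-5p). gmo-miR-223a-3p, named after the myeloid miR-223, averaged 2431 CPM with a log2 difference of -0.14 ± 1.03. The zebrafish-named miR-223 averaged 397 CPM with -0.92 ± 1.74. The rows of miR-142 and miR-223 were chosen after their values were seen.

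Red cell miRNAs followed control 7 and LPS 5. miR-451, which accumulates in maturing erythrocytes and whose precursor is cut by Argonaute2, stood at 1704, 1724, 52781, 3945 and 7886 CPM in the controls and 1027, 365, 2259, 24957 and 709.5 CPM in the LPS libraries. Control 7 and LPS 5 were the highest of their groups, and 4 of 5 LPS libraries lay below the control median. Its log2 difference was -1.21 ± 0.89 (SE, unadjusted p = 0.180 in edgeR), 0.17 without control 7, -2.90 without LPS 5 and -1.81 without both. The last 2 had unadjusted p of 0.00172 and 0.0157 in edgeR and adjusted p of 0.600 and 0.999. miR-144-5p, from the same primary transcript, stood at 1185, 457, 18404, 1219 and 3718 CPM in the controls and 783, 1163, 1434, 8472 and 753 CPM in the LPS libraries, with the same 2 libraries highest. The log2 difference of miR-144-5p was -0.99 ± 1.09, and with the libraries left out it was 0.40, -1.57 and -0.67. The list's rows (miR-144, 451 and 486) made up 5.19% of control 7 and 2.01% of LPS 5, and 0.136 to 1.32% of the other libraries. In the list, 0 of 5 estimates were above 0 with a median of -0.87, and with the libraries left out it was 5 of 6, 1 of 5 and 0 of 4, with medians of 0.35, -1.57 and -0.77. No row of miR-486 was among those tested.

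**Figure D4:**
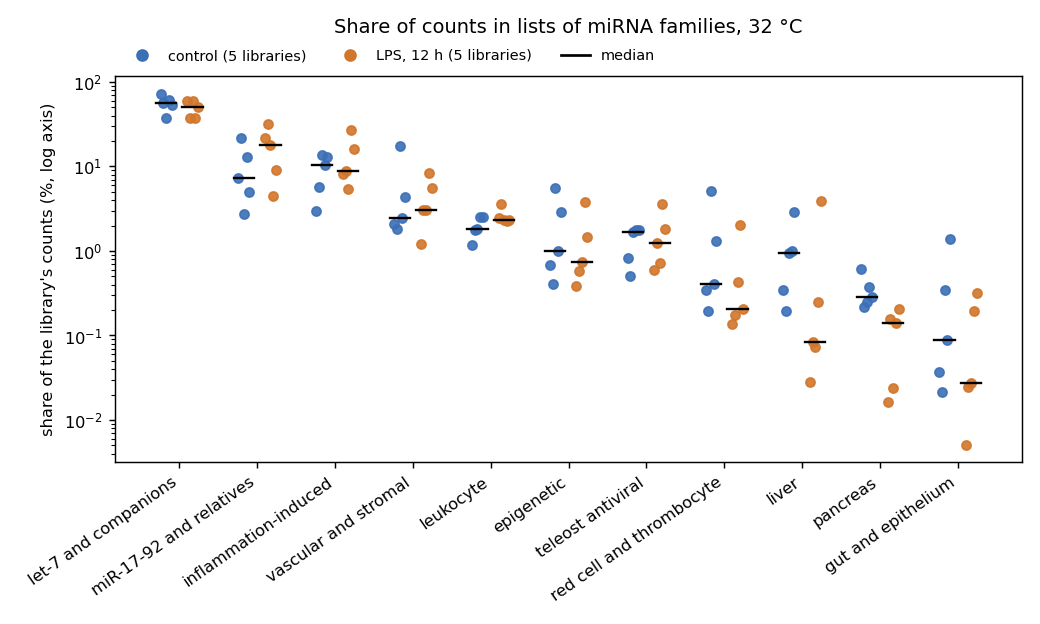
Share of each library's counts (%, log axis) in the rows of 11 lists of miRNA families, for 5 control (blue) and 5 LPS libraries (orange) at 32 °C, with group medians as black lines. The shares, taken before TMM scaling, overlap between the groups in every list shown except the pancreas list (0.217 to 0.615% against 0.0162 to 0.204%). That separation is lost after TMM scaling.

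Among vascular and stromal miRNAs (miR-126, 143, 145, 199 and 214), miR-143 and the count of higher estimates showed the same dependence. miR-143, abundant in smooth muscle, stood at 13412, 13974, 220449, 18062 and 27364 CPM in the controls and 11623, 17535, 27859.6, 105922 and 33803 CPM in the LPS libraries. Control 7 was far above the other controls, and LPS 5 was the highest of its group. The log2 difference was -0.58 ± 0.63 (SE; edgeR, unadjusted p = 0.364), 1.04 without control 7, -0.71 without LPS 5 and 0.32 without both. In the list 10 of 24 estimates were above 0 (median -0.04, 0 called), and with the libraries left out it was 19 of 24, 9 of 24 and 11 of 24, with medians of 0.62, -0.21 and -0.22. miR-199-5p, of mesenchymal cells, had 0.99 ± 0.84, or 0.26 without LPS 2. LPS 1 and LPS 2 stood at 1197 and 2049 CPM and the other 8 libraries between 278 and 847 CPM. Further rows named miR-199 were oni-miR-199b at -0.62, ola-miR-199a-3p at -0.52, miR-199-3p at -0.06, miR-199-3-3p at 0.06 and oni-miR-199c at 0.24. For miR-126, miR-126a-3p, gmo-miR-126-3p, miR-126b-3p and ccr-miR-126-3p had -0.57, -0.28, -0.20 and -0.14. miR-126b-5p and miR-126a-5p had 0.52 and 0.40. All these further rows lay within 1 standard error of 0, and they were picked later with their values known. The sign for miR-199 and for miR-126 thus depended on the row.

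The let-7 family, the most abundant in these spleens, had estimates near 0 with all libraries kept. let-7a, of the family that marks late development and differentiation, stood at 434409, 439863, 321179, 532946 and 356934 CPM in the controls and 595731, 192337, 448015, 419179 and 253955 CPM in the LPS libraries. The LPS libraries reached both lower and higher than the controls, and the log2 difference was -0.13 ± 0.34, with a 95% interval from -0.81 to 0.55. let-7f and let-7b had -0.14 ± 0.43 and 0.02 ± 0.43, the second of which was below 0 under RLE and total-count scaling and 0.66 without LPS 5. Control 7 held little let-7b, 6246 CPM against 33448 to 56488 in the other controls. The list of let-7, miR-98, 99, 100 and 125 had 33 tested rows, of which 19 had an estimate above 0 (median 0.02, 0 called). With the libraries left out it was 28 of 35, 26 of 35 and 16 of 35, with medians of 0.41, 0.51 and -0.032.

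miR-92a-3p, the second most abundant row and a member of the miR-17-92 group that promotes proliferation of blood progenitors in mammals, stood at 58998, 252267, 30593, 174368 and 46604 CPM in the controls and 335496, 290968, 192267, 73974 and 72977 CPM in the LPS libraries. All 5 LPS libraries lay above the control median, but controls 6 and 8 were as high as LPS libraries. The log2 difference was 0.78 ± 0.50 (SE; 95% interval -0.24 to 1.80; edgeR, unadjusted p = 0.131). It was 1.54 without LPS 5 and 1.43 without control 6 (unadjusted p = 0.00933 and 0.00792 in edgeR, adjusted p = 0.600 and 0.986), and 0.43 without LPS 2. ola-miR-92b had 0.80 ± 0.67, whereas the zebrafish-named miR-92b-3p had -0.46 ± 0.86 and miR-25-3p had -0.18 ± 0.61. miR-92b-3p and miR-25-3p were chosen after their values were seen. In the whole group (miR-17, 18, 19, 20, 92, 25, 93, 106 and 363) 11 of 18 estimates were above 0, with a median of 0.33 and 0 calls. With the libraries left out it was 14 of 18, 12 of 18 and 10 of 17. The group took 2.76 to 21.4% of the counts of a control and 4.47 to 31.9% of an LPS library, and control 7 and LPS 5 were the lowest of each.

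The families that target chromatin and cell cycle genes were mostly fitted lower with LPS, except without control 7. Of the 8 rows of the epigenetic list (miR-29, 148, 152, 101 and 26) 1 had an estimate above 0 (median -0.25), and with the libraries left out it was 7 of 8, 1 of 8 and 2 of 6, with medians of 0.53, -1.22 and -0.63. miR-26b, which represses the methyltransferase Ezh2 in mammals, stood at 2200.5, 1309, 29473, 2841 and 5295 CPM in the controls and 1099, 1839.9, 2537, 15751 and 1774 CPM in the LPS libraries, with control 7 and LPS 5 highest. For miR-26b the log2 difference was -0.84 ± 0.75, and that of miR-26a-5p was -0.27 ± 0.67. Without control 7 they were 0.42 and 0.29, without LPS 5 -1.50 and -1.04, and without both -0.68 and -0.81. miR-16c-5p, of a family that represses cyclins, had -0.67 ± 0.91, and with the libraries left out 0.21, -1.45 and -0.96. In the miR-15 and miR-16 list 1 of 8 estimates was above 0 (median -0.61), and then 5 of 8, 2 of 8 and 2 of 8, with medians of 0.17, -1.40 and -1.04. In the miR-30 and miR-10 families 6 of 13 and 0 of 5 estimates were above 0, with medians of -0.05 and -0.33. In the hypoxia and stress list (miR-210, 34, 24, 27 and 23) it was 6 of 20 with a median of -0.36, and with the libraries left out 12 of 21, 4 of 20 and 5 of 20. None of these lists held a called row. Of the lists from other tissues, striated muscle (miR-1, 133, 206 and 499) had 3 of 3 estimates above 0 with a median of 1.10, and neural and sensory (miR-9, 124, 138, 219, 96, 182 and 183) had 1 of 3. The list of gonad and embryo (miR-430 and 202) had 1 tested row, ssa-miR-202-5p, at a mean of 5.93 CPM. They too held no called row.

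Among the rows with a chromosome name, 4 rows named chr3_30712 had an unadjusted p under 0.05 and are the 4 rows higher with LPS noted above. chr3_30712-1 stood at 0, 5.96, 3.98, 7.62 and 1.50 CPM in the controls and 21.5, 195, 78.0, 16.6 and 10.2 CPM in the LPS libraries. Its groups did not overlap, nor did those of chr3_30712-2, and these were the only such rows of the 364 (0.549%). The separation is not resolved in control 3, where a count of 0 allows up to 13.1 CPM, more than the 10.2 CPM of LPS 7. The log2 differences of the 4 rows were 3.99 ± 1.86, 3.74 ± 1.77, 4.00 ± 1.88 and 3.92 ± 1.84 (SE; adjusted p = 0.999 in edgeR for each), and 2.43 to 2.77 without LPS 2. Their values in each library were alike, so they may share reads and count as 1 observation; LPS 2 held 195 to 223 CPM and the other LPS libraries 7.06 to 78.0 CPM.

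The remaining rows with the smallest p were decided by 1 or a few libraries. mmu-miR-5126 had a log2 difference of -6.10 ± 2.98 (edgeR, unadjusted p = 0.0481), from 6 counts in control 3, 7 in control 7, 65 in control 9 and 1 in LPS 3, with none in the other libraries. mmu-miR-5627-5p had -2.17 ± 1.24, although all 5 LPS libraries lay above its control median, because control 3 held 6911 CPM and the other controls 25.5 to 306 CPM. hsa-miR-7977 had -1.32 ± 0.73 and ipu-miR-27d -4.79 ± 2.73, with controls 3 and 6 highest for the first and control 6 for the second. ccr-miR-27c-5p, the row that limma voom called, stood at 0, 216, 52.0, 29.6 and 40.6 CPM in the controls and 0, 0, 0, 20.4 and 0.784 CPM in the LPS libraries. Its groups overlapped, since control 3 held no count, and without LPS 5 its log2 difference moved in edgeR from -3.93 ± 2.31 to -7.24 (unadjusted p = 0.0130, adjusted p = 0.600).

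The response at 32 °C was then set against the responses at 24 and 28 °C, by testing the difference between the LPS effects themselves. Both tests use the same 10 libraries of 32 °C, so they are not independent of each other. With edgeR 0 of 364 rows passed against 24 °C (0%; smallest adjusted p = 0.391) and 0 against 28 °C (0%; smallest adjusted p = 0.313). At an unadjusted p under 0.05 there were 28 rows (7.69%) against 24 °C and 33 rows (9.07%) against 28 °C. DESeq2 called 19 and 12 rows, and limma voom 1 and 1. The limma voom call against 24 °C was ccr-miR-217 of the pancreas list (log2 difference -9.08, adjusted p = 0.0309). Against 28 °C it was miR-140-3p (8.04, adjusted p = 0.0119 in limma voom). Neither was called by edgeR or DESeq2. Most DESeq2 calls had very large fitted differences, up to 28.5 on the log2 scale against 24 °C and 41.8 against 28 °C. hsa-let-7d-3p was called in both, with counts only in LPS 5 and LPS 7 at 32 °C. Others had no count in a whole group, such as ccr-miR-133a-3p (LPS, 24 °C) and miR-25-5p (controls, 28 °C). The numbers of calls are therefore not read here as a measure of a response. How many calls rest on such rows was not counted, and miR-375, called against 24 °C, had counts in every group. The LPS effect taken alone also had 0 called rows at 24 °C and at 28 °C in edgeR, with 44 (12.1%) and 48 rows (13.2%) at an unadjusted p under 0.05.

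miR-375 had the smallest p for the difference between 32 and 24 °C. The LPS effect was -2.01 ± 0.90 at 32 °C, 2.12 ± 0.90 at 24 °C and 1.13 ± 0.88 at 28 °C (log2 ± SE). The effects differed by -4.14 ± 1.28 between 32 and 24 °C (edgeR, unadjusted p = 0.00247, adjusted p = 0.391) and by -3.14 ± 1.26 between 32 and 28 °C (unadjusted p = 0.0168, adjusted p = 0.384), so neither passed. DESeq2 called the first (log2 difference -4.22, adjusted p = 0.00932). At 24 °C miR-375 ran from 339 to 1787 CPM in controls and from 295 to 8385 CPM with LPS, and at 28 °C from 8.52 to 1382 CPM and from 801 to 3190.5 CPM. The 32 °C controls, at 992 to 5033 CPM, had the highest mean of the 3 control groups (3076 ± 1685 CPM, SD, n = 5, against 826 ± 577 and 669 ± 539 CPM at 24 and 28 °C), a difference that was not tested here.

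The other rows with the smallest p in these tests were muscle miRNAs and rows that were absent from whole groups. They were miR-206-3p and ccr-miR-133a-3p, of striated muscle, for 32 against 24 °C (adjusted p = 0.391 each in edgeR). At 24 °C the controls averaged 430 ± 917 and 254 ± 416 CPM (SD, n = 5), and the LPS libraries had a mean of 0.712 ± 1.13 CPM of the first and no count of the second, so these fitted differences are not given. At 32 °C miR-206-3p stood at 0, 0, 71.7, 29.9 and 82.7 CPM in the controls and 73.4, 0, 0, 236 and 814 CPM in the LPS libraries, with LPS 7 highest. Against 28 °C the smallest p belonged to mmu-miR-3963, hsa-miR-3150b-5p and miR-25-5p (adjusted p = 0.313, 0.313 and 0.324 in edgeR). hsa-miR-3150b-5p had no count in any LPS library of 28 °C and miR-25-5p none in any control of 28 °C, and their fitted differences are not given either. mmu-miR-3963 reached 5519 CPM in a control of 28 °C and at most 216 CPM in a library of 32 °C.

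The effects on other miRNAs named above are set side by side here, and for none of them did a difference between temperatures pass in edgeR. The LPS effect on miR-146a was 0.10 ± 0.78 at 24 °C, -0.33 ± 0.78 at 28 °C and 1.22 ± 0.79 at 32 °C. For miR-21 it was 0.26 ± 0.47, -0.07 ± 0.47 and 0.56 ± 0.47, and for miR-222a-3p 0.52 ± 0.57, 0.49 ± 0.57 and 0.66 ± 0.57. For oni-miR-150 it was -0.02 ± 0.59, 0.49 ± 0.59 and 1.09 ± 0.60. For miR-92a-3p it was 0.00 ± 0.50, 0.31 ± 0.50 and 0.78 ± 0.50. The estimates of miR-146a, miR-21, miR-222a-3p, oni-miR-150 and miR-92a-3p were the largest of the 3 at 32 °C, by margins that did not pass. These rows were among the smallest p of their lists at 32 °C. That choice favours large estimates at 32 °C, so their order over the temperatures shows no trend. At 32 °C that of miR-146a was -0.36 without LPS 5, and without control 3 those of miR-21 and miR-222a-3p were 0.043 and 0.26. With single libraries of 32 °C left out, oni-miR-150 and miR-92a-3p went no lower than 0.77 and 0.43. The zebrafish-named miR-150 had -0.57 at 32 °C, however, and rows named exactly miR-150, summed without gmo-miR-150-5p, had 0.32. For miR-451 the effect was -1.22 ± 0.89, -0.23 ± 0.88 and -1.21 ± 0.89, and for let-7a -0.63 ± 0.34, -0.14 ± 0.34 and -0.13 ± 0.34.

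**Figure D5:**
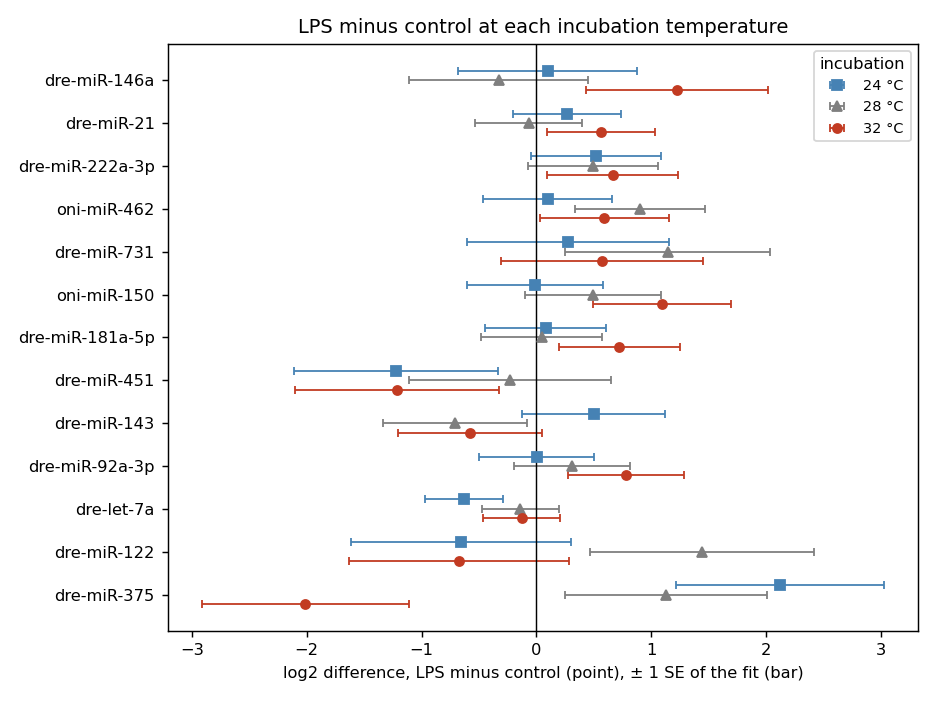
Log2 difference between LPS and control libraries for 13 miRNA rows at incubation temperatures of 24 °C (squares), 28 °C (triangles) and 32 °C (circles). Bars are ± 1 SE, derived from the estimate and F statistic of the edgeR test. miR-375 is the row whose effect at 32 °C (-2.01) is opposite in sign to those at 24 °C (2.12) and 28 °C (1.13) by more than the bars, but the differences did not pass after adjustment.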

How the data were processed

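Per the labels' protocols, 50 ng of spleen RNA went into each NEXTflex v3 small RNA library, with random bases in the adapters and amplification over 22 cycles. Tools named in the submitters' processing notes, with no role stated, are DESeq2 1.11.1, FastQC 0.11.5, cutadapt 1.12 and bcl2fastq. For the aligner, counting tool, genome build and miRNA reference, nothing is given in the sources used here. The authors deposited read counts for 8866 rows in all libraries as 1 table, and these were assumed to be raw. No removal of PCR copies is recorded, so limits for a count of 0 (3 counts) cover counting error only.

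From these counts, rows were kept by filterByExpr on the 6 groups of all 30 libraries, which left 364 rows; the rows left out held 0.249% of the counts. Libraries were scaled with TMM (factors 0.535 to 1.49). The robust quasi-likelihood method of edgeR 4.0.16 in R 4.3.3 was fitted once, with 6 group means and 24 residual degrees of freedom. Contrasts were LPS minus control at 32 °C and its difference from 24 and from 28 °C, called at a Benjamini-Hochberg adjusted p under 0.05 over the 364 rows. The common biological coefficient of variation was 1.79. Standard errors were derived as the size of the log2 difference divided by the square root of the test's F statistic, since the test itself returns none. Intervals are at 95% and rest on these standard errors. Depth and detected rows were compared by exact permutation over the libraries. The fit was tested on simulated data.

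The members, lists and tests were chosen with earlier results of these data known. Named rows are the 10 smallest p among rows that averaged at least 10 CPM, rows from the 4 smallest p of each of 18 lists of families, rows from the 10 most abundant, and the 3 smallest p of each difference between temperatures; others are named as chosen later. Alternatives were DESeq2 1.42.0, limma 3.58.1 voom with a weight estimated for each library, and other scalings, filters and depth corrections. They also included zebrafish rows only, the 10 libraries of 32 °C alone, a replicate block, and libraries left out. Fitting TMM on totals of all rows, and summing rows of one miRNA name, were added after seeing the data. Sequences, miRNA targets and the temperature effect itself were not analysed here.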

Additional observations from a re-analysis of the deposited data

Results flagged for a closer look

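In 10 of the 92 groups of 5 libraries examined, the highest or lowest library lay apart from the other 4 by most of the group's range on the log2 scale. For independent, normally distributed groups chance does so in about 5%. Most of these groups come from rows picked by p or abundance and share the same 10 libraries, and some hold zeros. The 5% is therefore no measure for the 10, and the share over all rows tested was not computed. LPS 5 was the high library in 4 of them, with 8472 CPM of miR-144-5p, 9351 CPM of miR-16c-5p, 208 CPM of ccr-miR-217 and 20.4 CPM of ccr-miR-27c-5p. Control 7 was high for miR-143, at 220449 CPM, and low for let-7b, at 6246 CPM. LPS 7 was low for miR-181a-5p, at 3485 CPM. LPS 2 was low for hsa-miR-23b-5p, at 4.10 CPM. LPS 3 was the one LPS library with counts of mmu-miR-5126, at 1.47 CPM from 1 count, where any count would have been flagged. Control 3 held 0 counts of miR-15c, which allows up to 13.1 CPM. Without LPS 5 the log2 differences of its 4 rows were -1.57, -1.45, -6.27 and -7.24, and without control 7 those of miR-143 and let-7b were 1.04 and 0.10.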

How the results depend on the processing

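The count of 0 called rows at 32 °C held in every alternative except DESeq2 (1) and limma voom (1); unadjusted p under 0.05 ran from 1 row (replicate block, zebrafish rows only) to 41 (limma voom), was 23 without LPS 5 and was 303 of 1591 rows with no low-count filter. The difference from 24 °C had 19 called rows with DESeq2 and 1 with limma voom, and that from 28 °C had 12, 1 and, with no filter, 2. The DESeq2 calls include rows without counts in a whole group. All other alternatives called 0. Replicate numbers 3 and 7 occur in both groups at 32 °C, so the replicate block compares LPS with control within these numbers only. Their same-numbered libraries deviated together at r = 0.323 and 0.236. Control 7 with LPS 5 had 0.720, but they are the most alike pair of all, and no other differently numbered pair was computed. These values therefore cannot decide whether the numbers mark pairs.

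Of 44 rows followed at 32 °C, 22 kept their sign in every alternative. The replicate block estimates the 32 °C difference within replicate numbers 3 and 7 alone, and the other libraries, LPS 5 among them, do not enter it. The log2 difference changed sign with the replicate block for miR-146a (-0.40), ssa-miR-21a-5p (-0.52), ola-miR-181b-5p (-0.047), miR-199-5p (-0.76) and miR-192 (0.52). It did so with limma voom for hsa-miR-7977 (0.090), mmu-miR-5627-5p (0.98), oni-miR-462 (-0.33) and miR-206-3p (-0.55), and without control 7 and LPS 5 for oni-miR-462 (-0.25) and miR-143 (0.32). Summed rows, without gmo-miR-150-5p, gave miR-150 0.32. For miR-462 it was -0.19 with DESeq2 and with RLE, -0.92 with limma voom, -0.26 with totals, -0.20 and -0.15 with no and a stricter filter, -0.14 with zebrafish rows, -0.36 with 32 °C alone, -1.29 with the block, -0.12 thinned, -0.44 with depth as covariate, -1.02 without both libraries and -0.32 with TMM on all rows. For let-7b it was -0.027 with DESeq2 and with RLE, -0.11 with totals, -0.069 with zebrafish rows, -0.068 with 32 °C alone, -0.056 thinned, -0.076 without both libraries and -0.050 with TMM on all rows.

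Leaving out each library gave, from lowest to highest, -2.73 to 1.01 for mmu-miR-5627-5p, -0.36 to 1.72 for miR-146a, -0.76 to -0.023 for miR-462, -0.024 to 0.96 for miR-731, -2.90 to 0.17 for miR-451, -1.93 to 0.40 for miR-144-5p, -1.42 to 1.04 for miR-143, -0.33 to 0.36 for let-7a, -0.49 to 0.34 for let-7f, -0.35 to 0.66 for let-7b, -1.53 to 0.21 for miR-16c-5p, -1.05 to 0.29 for miR-26a-5p, -1.76 to 0.42 for miR-26b, -3.37 to 0.21 for miR-122 and -4.14 to 0.76 for miR-192. For the log2 total it gave -0.62 to 0.69. The causes were not tested. At 199431 counts, rows under 13.1 CPM in control 3 are beyond its depth.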
